A study of Mus musculus with 15 samples.

Results

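The 50 genes described here, of 23359 in the deposited tables, carry out mitosis: they build the spindle, condense the chromosomes, hold them to the microtubules and part them. They were taken as a named list, matched by gene symbol in the 10 pairwise comparison tables, and all 50 were found. Levels were measured by RNA-seq in leukemia stem cells (LSC) from 4 sites, namely gonadal adipose tissue (AT), peripheral blood (BL), spleen (SPL) and bone marrow (BM), and in normal counterparts from normal bone marrow (NBM). The leukemia models the blast crisis of chronic myeloid leukemia in mice by expressing the human oncogenes BCR-ABL and NUP98-HOXA9 together, and LSC were taken 12 days after leukemia cells were transplanted into recipients. All mice were female and 3 months old, and each of the 5 groups had 3 libraries. The strain field of all 15 samples, NBM included, describes this leukemia model and names no mouse strain, and the transplantation text is shared as well, so NBM samples were grouped here by their title and cell type. The labels give no sort gate. They also leave unsaid if the libraries within a group are from different mice, and p-values may then reflect technical variation alone.

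Cells enter mitosis when cyclin B activates the kinase Cdk1, helped by Plk1, Aurka and the Cdc25 phosphatases. The spindle checkpoint then holds the cell in metaphase until every kinetochore is attached, after which Cdc20 and the anaphase-promoting complex destroy cyclin B and securin, separase cuts the rings that hold sister chromatids, and the cell divides at its midzone. Most of these genes are transcribed late in the cell cycle and are low in resting cells, so their summed level is often read beside the share of dividing cells. In bulk RNA such as this, fewer dividing cells and less RNA per dividing cell cannot be told apart.

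The mitotic genes were lowest in blood LSC, intermediate in adipose LSC, and highest in spleen LSC, marrow LSC and normal cells. All levels are the authors' FPKM, 1 value per gene and group, pooled over 3 libraries and scaled by gene length and sequencing depth. The median of the 50 genes was 3.19 FPKM in AT, 1.5 in BL, 10.6 in SPL and 8.56 in BM LSC, against 8.95 in NBM. Together the genes held 0.272% of the estimated fragment counts in AT, 0.112% in BL, 0.621% in SPL and 0.549% in BM LSC, against 0.668% in NBM. An FPKM of 1 or more was reached by 42 of the genes in AT, 31 in BL, 50 in SPL and 49 in BM LSC, against 50 in NBM. BL LSC held the lowest of the 5 levels for 48 of 50 genes (96.0%), a position that 28.5% of 12115 tested genes had. The order of BL below AT and AT below BM LSC held for 47 of 50 (94.0%), against 27.4% of the tested genes. SPL LSC held the highest level for 36 genes (72.0%, against 38.7% of the tested genes), NBM for 12 and BM LSC for 2. These orders are of pooled values and carry no test.

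**Figure D1:**
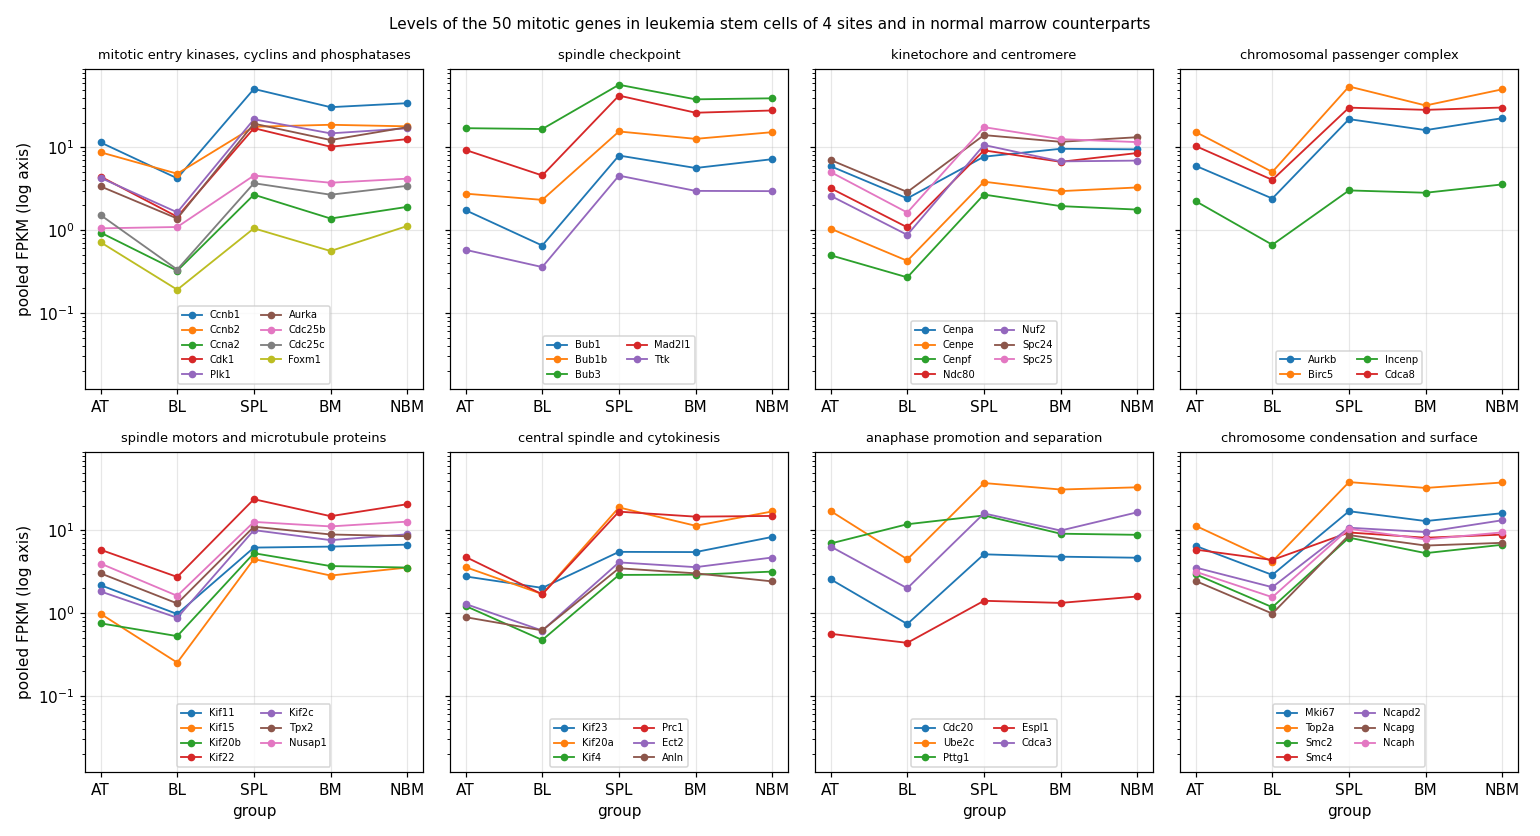
Authors' pooled FPKM (log axis) of the 50 mitotic genes by role in AT, BL, SPL and BM LSC and in NBM, with 1 line per gene. Lines dip at BL for 48 of 50 genes, while Pttg1 and Cdc25b do not have their lowest value there.

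Differences were read from the authors' Cuffdiff tests, in which a gene was called at a q below 0.05. Folds are log2 of the first group named over the second, and ± is the standard error that the authors' test statistic implies. In BL against BM LSC the authors' deposited table called 44 of 50 genes lower, where 22.8% of all tested genes were called lower. The members' median fold there was -2.69, against -0.37 over all tested genes. In AT against BM LSC the authors' deposited table called 29 of 50 lower (15.5% of all tested genes lower), with a median fold of -1.40 against -0.48 over all tested genes. AT lay above BL: the authors' deposited table called 25 of 50 higher in AT against BL LSC (4.01% of all tested genes higher), with a median of 1.29 against -0.11. No member was called in the opposite direction in these 3 comparisons. The comparisons share groups and are not independent of one another.

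The counts against spleen LSC and against NBM had the same direction. The authors' deposited table called 44 of 50 genes lower in BL against SPL LSC (23.1% of all tested genes lower), with a median fold of -3.06. It called 32 of 50 lower in AT against SPL LSC (17.9% of all tested genes lower), with a median of -1.75. Against NBM, the authors' deposited table called 44 of 49 tested members lower in BL LSC (22.9% of all tested genes lower; median -2.79) and 35 of 49 lower in AT LSC (15.5% lower; median -1.55). Nusap1 had a failed test in each comparison with NBM, which leaves 49.

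The size of the adipose count depends on how the groups are scaled. All tested genes together sat 0.48 lower in AT than in BM LSC on the log2 scale. With folds centred on that median, 7 members remained called lower in AT against BM LSC (5.11% of all tested genes lower): Plk1, Aurka, Bub1b, Ttk, Cenpf, Kif20b and Kif2c. The blood count stayed at 41 of 50 lower in BL against BM LSC after centring (13.5% of all tested genes lower), with Foxm1, Bub3 and Kif20a losing their call. Centring left 16 of 50 called lower in AT against SPL LSC (6.95% of all tested genes lower) and 16 of 49 in AT LSC against NBM (6.56% lower). In AT against BL LSC the centred count was 25 higher (4.39% of all tested genes higher). That count depends instead on the adjustment of q, which the authors' deposited tables make over all comparisons together. With q adjusted within AT against BL LSC alone, 8 of 50 members were called higher. The deposited calls of single genes and roles in AT against BL LSC given below rest on the adjustment over all comparisons.

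**Figure D2:**
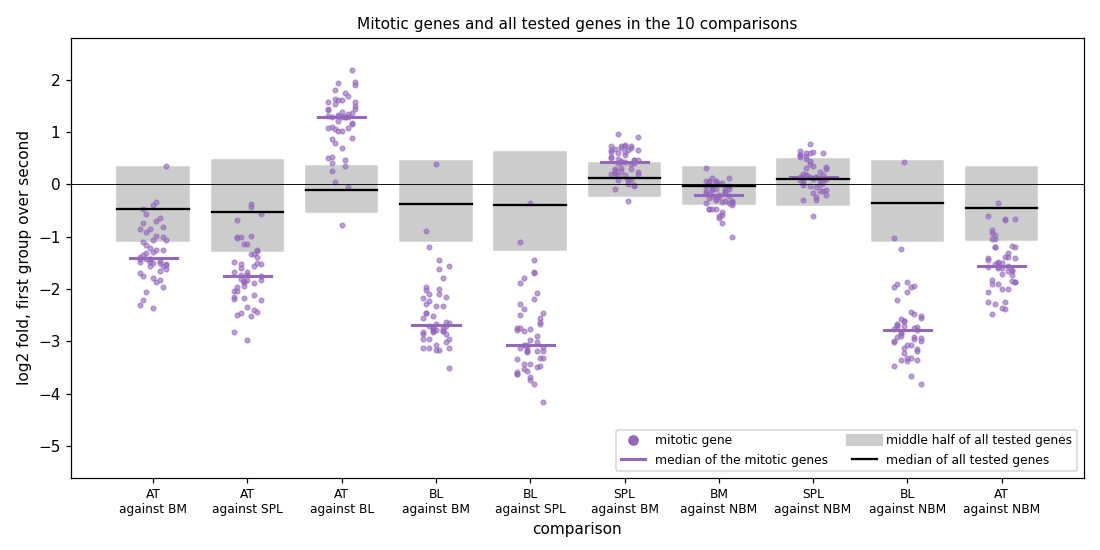
Authors' log2 folds of the mitotic genes (points) in the 10 comparisons, with their median (purple) beside the median (black) and the middle 50 percent (grey) of all tested genes. The purple medians stand at -2.69 in BL against BM, -1.40 in AT against BM and 1.29 in AT against BL, and at -0.20 in BM against NBM.

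Among the genes that start mitosis, 7 of 9 were called lower in BL against BM LSC, 4 of 9 lower in AT against BM LSC and 6 of 9 higher in AT against BL LSC in the authors' deposited tables. The shares of all tested genes were 22.8%, 15.5% and 4.01%. With centred folds the counts were 6, 2 and 6, against 13.5%, 5.11% and 4.39% of all tested genes. Ccnb1, the main mitotic cyclin, had 11.5 FPKM in AT, 4.23 in BL, 51.0 in SPL and 30.7 in BM LSC, against 34.3 in NBM. Its kinase partner Cdk1 had 4.44 FPKM in AT, 1.45 in BL, 17.1 in SPL and 10.2 in BM LSC, against 12.6 in NBM. For both, every LSC site and NBM kept the same order, with BL lowest and SPL highest. In the authors' deposited tables the fold of Ccnb1 in BL against BM LSC was -2.86 ± 0.35 (q = 1.53e-13), and in AT against BM LSC -1.42 ± 0.45 (q = 0.0117). The fold of Cdk1 in AT against BL LSC was 1.62 ± 0.48 (q = 0.00647) in the authors' deposited table. Plk1, the kinase that drives centrosome maturation and kinetochore attachment, had 4.29 FPKM in AT, 1.64 in BL, 21.9 in SPL and 14.8 in BM LSC, against 17.0 in NBM. Aurka, the centrosomal Aurora kinase that activates Plk1, had 3.38 FPKM in AT, 1.38 in BL, 19.4 in SPL and 12.3 in BM LSC, against 17.6 in NBM. Both kinases were lower in BL and AT LSC than in each of the other 3 groups. In BL against BM LSC the authors' deposited table gave folds of -3.17 ± 0.38 for Plk1 and -3.16 ± 0.37 for Aurka, both with q listed as 0. In AT against BM LSC it gave -1.79 ± 0.45 (q = 0.000895) for Plk1 and -1.86 ± 0.46 (q = 0.000632) for Aurka.

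Foxm1, the transcription factor that switches on many late cell cycle genes (chr6:128362994-128385144, mm10), departed from this order. It had 0.713 FPKM in AT, 0.19 in BL, 1.05 in SPL and 0.558 in BM LSC, against 1.12 in NBM, so AT LSC stood above BM LSC and below SPL LSC and NBM. The authors' deposited table called it higher in AT against BL LSC (1.90 ± 0.55, q = 0.00449) and lower in BL against BM LSC (-1.55 ± 0.48, q = 0.00946), but not in AT against BM LSC (0.35 ± 0.52, q = 0.723). Cdc25c, a phosphatase that removes the inhibitory phosphates of Cdk1, had 1.52 FPKM in AT, 0.333 in BL, 3.69 in SPL and 2.68 in BM LSC, against 3.43 in NBM. Its rise in AT over BL LSC was the largest of the 50 in the authors' deposited table, 2.19 ± 0.56 (q = 0.00111). Ccnb2, the second B-type cyclin, was called lower in BL against BM LSC in the authors' deposited table (-1.97 ± 0.36, q = 1.65e-06) and not called in AT against BM LSC (-1.10 ± 0.44, q = 0.0564). Ccna2, the cyclin of S phase and early mitosis, and Cdc25b, the starter phosphatase, were called in none of the 10 comparisons. Cdc25b had 1.05 FPKM in AT, 1.09 in BL, 4.57 in SPL and 3.74 in BM LSC, against 4.19 in NBM, with AT and BL LSC side by side. Their standard errors were wide, 0.95 for Ccna2 and 1.51 for Cdc25b in AT against BM LSC in the authors' deposited table. The deposited gene interval of Cdc25b spans 477413 bases, against 12076 in RefSeq. That of Ccna2 spans 19391 against 8174, and that of Foxm1 22151 against 12893. Fragments from elsewhere may therefore be in the values of these genes, including the AT value of Foxm1 above BM LSC. The BL value of Foxm1 rested on 64 estimated counts.

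Promoters bear on these genes because members that move together often carry the same letters near their start. The cell cycle genes homology region (CHR) is a short element bound by MuvB complexes, which repress with DREAM in resting cells and activate with B-MYB and FOXM1 in G2 and mitosis. The CCAAT box, bound by NF-Y, often lies upstream of it. RefSeq promoter windows on GRCm38.p6, from 250 bases before to 50 after the start, were at hand for 41 of the 50 genes. Of these, 5 windows are shown, chosen as kinases and cyclins of entry, a condensation enzyme, and a member whose level hardly differed between AT and BL LSC (Bub3). Capitals mark CHR letters (TTTGAA or TTCGAA) and CCAAT boxes, each on either strand. Plk1 lies at chr7:122159185-122159484 on the plus strand, Cdk1 at chr10:69352863-69353162 and Ccnb1 at chr13:100786437-100786736 on the minus strand, Top2a at chr11:99024140-99024439 on the minus strand and Bub3 at chr7:131560120-131560419 on the plus strand.
Plk1: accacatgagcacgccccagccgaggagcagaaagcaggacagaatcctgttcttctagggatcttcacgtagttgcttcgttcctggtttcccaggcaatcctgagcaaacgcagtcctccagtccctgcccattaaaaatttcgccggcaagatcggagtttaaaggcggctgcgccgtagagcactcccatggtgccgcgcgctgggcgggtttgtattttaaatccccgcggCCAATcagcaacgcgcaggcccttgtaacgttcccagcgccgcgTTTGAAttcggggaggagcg
Cdk1: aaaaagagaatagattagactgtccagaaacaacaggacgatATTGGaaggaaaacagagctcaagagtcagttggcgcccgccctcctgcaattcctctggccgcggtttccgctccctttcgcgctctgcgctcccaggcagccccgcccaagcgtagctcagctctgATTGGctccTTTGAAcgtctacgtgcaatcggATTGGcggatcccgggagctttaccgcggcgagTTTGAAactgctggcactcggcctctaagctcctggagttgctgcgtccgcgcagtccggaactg
Ccnb1: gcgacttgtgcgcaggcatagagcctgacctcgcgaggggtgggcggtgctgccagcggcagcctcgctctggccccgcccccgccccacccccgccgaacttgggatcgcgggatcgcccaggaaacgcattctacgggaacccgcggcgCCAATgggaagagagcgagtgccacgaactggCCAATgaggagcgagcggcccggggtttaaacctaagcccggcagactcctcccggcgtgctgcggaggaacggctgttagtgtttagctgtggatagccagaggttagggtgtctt
Top2a: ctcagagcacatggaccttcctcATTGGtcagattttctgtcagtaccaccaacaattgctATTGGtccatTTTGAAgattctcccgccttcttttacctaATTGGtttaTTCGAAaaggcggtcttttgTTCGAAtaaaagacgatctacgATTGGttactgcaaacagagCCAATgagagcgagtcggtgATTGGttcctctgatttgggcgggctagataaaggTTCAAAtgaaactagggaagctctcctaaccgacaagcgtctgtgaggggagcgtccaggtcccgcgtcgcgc
Bub3: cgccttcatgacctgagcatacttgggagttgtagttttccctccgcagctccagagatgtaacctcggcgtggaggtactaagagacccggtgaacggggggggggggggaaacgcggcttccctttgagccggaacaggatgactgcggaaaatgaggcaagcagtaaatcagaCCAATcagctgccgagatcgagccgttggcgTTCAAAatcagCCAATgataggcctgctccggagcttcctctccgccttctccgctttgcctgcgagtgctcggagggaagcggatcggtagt

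CHR letters stood in 33 of 41 member windows (80.5%), against 19.2% of 32851 windows in the genome and 14.4% of the windows of 8848 tested genes. CCAAT stood in 30 of 41 (73.2%), against 37.4% of all windows. Both stood in 28 of 41 (68.3%), against 7.52% of all windows. Of 46 CHR matches, 34 lay within 100 bases of the start, and of 66 CCAAT matches 45 did. Across the 41 windows 1 pair of matches of the 2 motifs shared bases. Top2a held 4 CHR matches and 6 CCAAT boxes, and Cdk1 held 2 and 3. Plk1 held 1 of each, with its CHR letters at base 31 after the start. Ccnb1 held 2 CCAAT boxes and no CHR letters in its window. Mad2l1, Nuf2, Birc5, Nusap1, Pttg1 and Ncaph held neither. For 35 of 41 windows the RefSeq start lay within 50 bases of the deposited interval's end. It lay further away for Aurka, Cdc25b, Mad2l1, Kif2c, Nusap1 and Pttg1, whose windows may belong to another start. The folds did not separate by the letters: in BL against BM LSC the authors' deposited table gave a median of -2.71 over the 33 genes with CHR letters and -2.73 over the 8 without, a difference that was not tested. A match is a description of letters, not a measured binding site.

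The spindle checkpoint genes were the group in which adipose LSC stood closest to blood LSC. All 5 were called lower in AT against BM LSC and all 5 lower in BL against BM LSC, while 1 of 5 was called higher in AT against BL LSC, in the authors' deposited tables. The shares of all tested genes were 15.5%, 22.8% and 4.01%. With centred folds the counts were 2, 4 and 1, against 5.11%, 13.5% and 4.39% of all tested genes. Bub1b (chr2:118598211-118641592, mm10), the BubR1 component that holds Cdc20 inactive, had 2.76 FPKM in AT, 2.32 in BL, 15.6 in SPL and 12.7 in BM LSC, against 15.3 in NBM. Bub3, which carries Bub1 and BubR1 to kinetochores, had 17.1 FPKM in AT, 16.7 in BL, 57.3 in SPL and 38.2 in BM LSC, against 39.3 in NBM. Both had nearly equal levels in AT and BL LSC, well under the other 3 groups. In AT against BL LSC the authors' deposited table gave 0.25 ± 0.49 (q = 0.805) for Bub1b, and for Bub3 0.04 ± 0.47 (q = 0.979), with a 95% interval of -0.88 to 0.96. In AT against BM LSC the authors' deposited table gave -2.21 ± 0.45 (q = 2.6e-05) for Bub1b and -1.16 ± 0.44 (q = 0.0413) for Bub3. Ttk, the kinase Mps1 that starts checkpoint signalling, had 0.577 FPKM in AT, 0.357 in BL, 4.56 in SPL and 2.98 in BM LSC, against 2.96 in NBM. Its fold in AT against BM LSC was the lowest of the 50 in the authors' deposited table, -2.37 ± 0.59 (q = 0.000849). Bub1, the kinetochore kinase that recruits the others, had 1.74 FPKM in AT, 0.65 in BL, 7.98 in SPL and 5.64 in BM LSC, against 7.21 in NBM, and was the one called higher in AT against BL LSC in the authors' deposited table (1.42 ± 0.53, q = 0.0393). Mad2l1, the Mad2 protein that binds Cdc20, was lower in AT against BM LSC (-1.49 ± 0.44, q = 0.00592) and in BL against BM LSC (-2.52 ± 0.36, q = 3.19e-10) in the authors' deposited tables. On a log2 scale that puts BL at 0 and BM at 1, the checkpoint genes in AT lay at a median of 0.23 (0.03 to 0.46), against 0.46 (-0.03 to 1.23) over 49 members without Pttg1. This difference between roles was not tested.

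Kinetochore and centromere genes were all called lower in BL against BM LSC, 7 of 7, and 6 of 7 were called higher in AT against BL LSC in the authors' deposited tables. In AT against BM LSC, 3 of 7 were called lower: Cenpe, Cenpf and Nuf2. The shares of all tested genes in these comparisons were 22.8%, 4.01% and 15.5%. With centred folds the counts were 7, 6 and 1, against 13.5%, 4.39% and 5.11% of all tested genes. The 1 in AT against BM LSC was Cenpf. Cenpf, a large protein of the outer kinetochore, had 0.496 FPKM in AT, 0.268 in BL, 2.69 in SPL and 1.95 in BM LSC, against 1.77 in NBM. Its fold in the authors' deposited table was -1.97 ± 0.47 (q = 0.000372) in AT against BM LSC, and it was the member of this group not called in AT against BL LSC (0.89 ± 0.51, q = 0.225). The Ndc80 complex, which grips the microtubule, is made of Ndc80, Nuf2, Spc24 and Spc25. All 4 subunits had folds between 1.28 and 1.63 in AT against BL LSC in the authors' deposited table. In BL against BM LSC the authors' deposited table gave -2.96 ± 0.38 (q = 7.49e-13) for Nuf2, and for Spc24 -2.02 ± 0.36 (q = 1.01e-06). Spc25 had 5.04 FPKM in AT, 1.63 in BL, 17.6 in SPL and 12.6 in BM LSC, against 11.6 in NBM. Cenpa, the histone H3 variant that marks the centromere, had its highest level in BM LSC, 9.63 FPKM, next to 9.48 in NBM, and was not called in AT against BM LSC (-0.70 ± 0.45, q = 0.304, the authors' deposited table). Cenpe, a kinesin that carries chromosomes to the spindle equator, was called lower in AT against BM LSC (-1.51 ± 0.44, q = 0.00556, the authors' deposited table).

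The chromosomal passenger complex, which corrects faulty attachments and later organises cleavage, was called lower in BL against BM LSC and higher in AT against BL LSC for all 4 subunits in the authors' deposited tables. The shares of all tested genes were 22.8% and 4.01%. With centred folds all 4 subunits kept both calls, against 13.5% and 4.39% of all tested genes. Birc5, or survivin, which targets the complex to centromeres, had 15.4 FPKM in AT, 5.05 in BL, 54.6 in SPL and 32.2 in BM LSC, against 50.5 in NBM. Its fold in the authors' deposited table was -2.67 ± 0.41 (q = 4.26e-09) in BL against BM LSC, and in AT against BL LSC 1.61 ± 0.53 (q = 0.0157). Incenp, the scaffold of the complex, had 2.24 FPKM in AT, 0.664 in BL, 3.02 in SPL and 2.83 in BM LSC, against 3.57 in NBM. Its AT value lay close to that of BM LSC (-0.34 ± 0.44, q = 0.682, the authors' deposited table) and well above that of BL LSC (1.75 ± 0.47, q = 0.00214). Aurkb, the kinase of the complex, had 6.0 FPKM in AT, 2.41 in BL, 22.0 in SPL and 16.2 in BM LSC, against 22.6 in NBM. In AT against BM LSC the authors' deposited table called Aurkb (-1.43 ± 0.45, q = 0.0103) and Cdca8, or borealin (-1.46 ± 0.45, q = 0.00818), lower (15.5% of all tested genes lower). Neither kept its call with centred folds.

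All 7 spindle motor and microtubule genes were called lower in AT against BM LSC and in BL against BM LSC in the authors' deposited tables. The shares of all tested genes were 15.5% and 22.8%. With centred folds 2 of 7, Kif20b and Kif2c, kept their call in AT against BM LSC (5.11% of all tested genes lower). All 7 kept it in BL against BM LSC (13.5% lower). Kif15 (chr9:122951081-123018733, mm10), a kinesin that helps keep spindle poles apart, had 0.982 FPKM in AT, 0.252 in BL, 4.51 in SPL and 2.85 in BM LSC, against 3.56 in NBM. In BL against BM LSC the authors' deposited table gave it -3.50 ± 0.41 with q listed as 0, the lowest fold of the 50, and in AT against BL LSC 1.96 ± 0.52 (q = 0.00174). Kif20b, a kinesin of late mitosis and cytokinesis, had 0.753 FPKM in AT, 0.527 in BL, 5.31 in SPL and 3.71 in BM LSC, against 3.56 in NBM. It had the smallest q of the 50 in AT against BM LSC (-2.30 ± 0.46, q = 1.22e-05, the authors' deposited table), and had no call in AT against BL LSC (0.51 ± 0.49, q = 0.542). Kif2c, or MCAK, which takes apart microtubule ends at kinetochores, had 1.83 FPKM in AT, 0.879 in BL, 10.1 in SPL and 7.64 in BM LSC, against 8.99 in NBM. Its fold in AT against BM LSC was -2.06 ± 0.46 (q = 0.000158) in the authors' deposited table. Kif11, or Eg5, the kinesin that pushes spindle poles apart, was lower in AT against BM LSC (-1.55 ± 0.45, q = 0.00546) in the authors' deposited table, as was Tpx2, which activates Aurka on spindle microtubules (-1.56 ± 0.43, q = 0.00246). Kif22 and Nusap1, which bind chromosomes and bundle microtubules, had folds of -1.35 and -1.5 there. Kif15 and Nusap1 were the members of this group called higher in AT against BL LSC.

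Of 6 genes of the central spindle and cytokinesis, 5 were called lower in BL against BM LSC, 3 lower in AT against BM LSC and 2 higher in AT against BL LSC in the authors' deposited tables. The shares of all tested genes were 22.8%, 15.5% and 4.01%. With centred folds the counts were 4, 0 and 2, against 13.5%, 5.11% and 4.39% of all tested genes. Prc1, which bundles the antiparallel microtubules of the midzone, had 4.79 FPKM in AT, 1.69 in BL, 16.9 in SPL and 14.7 in BM LSC, against 15.0 in NBM. In the authors' deposited table its fold in BL against BM LSC was -3.13 ± 0.37 with q listed as 0, and in AT against BL LSC 1.5 ± 0.51 (q = 0.021). Kif23, the kinesin of the centralspindlin complex, had 2.78 FPKM in AT, 2.02 in BL, 5.51 in SPL and 5.48 in BM LSC, against 8.36 in NBM. NBM stood above both BM and SPL LSC for this gene, and BL against BM LSC had a small fold for the list (-1.44 ± 0.36, q = 0.000876, the authors' deposited table). Kif4, which shortens the midzone, and Ect2, the exchange factor that activates RhoA for the cleavage furrow, were called lower in AT against BM LSC (-1.26 ± 0.44, q = 0.0261 and -1.48 ± 0.54, q = 0.0326, the authors' deposited table). Kif20a, a passenger-complex carrier, was called in BL against BM LSC (-2.74 ± 0.94, q = 0.0222, the authors' deposited table) and not in AT against BM LSC (-1.66 ± 0.90, q = 0.191). Anln, the contractile ring scaffold anillin, had 0.893 FPKM in AT, 0.618 in BL, 3.49 in SPL and 3.03 in BM LSC, against 2.42 in NBM, and was called in no comparison, with a standard error of 2.14 in AT against BM LSC in the authors' deposited table. The deposited intervals of Anln and Kif20a, like that of the condensin gene Ncapg, were 5.75, 6.14 and 6.12 times as long as the RefSeq genes.

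The 5 genes of anaphase promotion were the most mixed. Ube2c (chr2:164769929-164772902, mm10), the ubiquitin-conjugating enzyme that works with the anaphase-promoting complex, had 17.2 FPKM in AT, 4.48 in BL, 37.5 in SPL and 31.3 in BM LSC, against 33.3 in NBM. It had the smallest q of the 50 in AT against BL LSC (1.94 ± 0.47, q = 0.000488, the authors' deposited table) and no call in AT against BM LSC (-0.86 ± 0.43, q = 0.147). Cdca3, which promotes the breakdown of the mitosis inhibitor Wee1, had 6.4 FPKM in AT, 2.0 in BL, 16.1 in SPL and 9.98 in BM LSC, against 16.6 in NBM. Its order matched that of Ube2c in the LSC groups, with AT next below BM, and its fold in AT against BL LSC was 1.68 ± 0.49 (q = 0.00508) in the authors' deposited table. Cdc20, which activates the complex once the checkpoint is satisfied, had 2.57 FPKM in AT, 0.738 in BL, 5.15 in SPL and 4.82 in BM LSC, against 4.68 in NBM. It was called in no comparison, had a wide standard error in BL against BM LSC (-2.71 ± 1.85, q = 0.337, the authors' deposited table), and its deposited interval was 2.08 times as long as the RefSeq gene. Espl1, separase, which cuts cohesin, was called lower in AT (-1.25 ± 0.48, q = 0.0469) and in BL (-1.61 ± 0.39, q = 0.000545) against BM LSC in the authors' deposited tables. Its call in AT against BM LSC was lost with centred folds.

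Pttg1 (chr11:43420248-43426248, mm10), securin, the inhibitor of separase, ran against the rest of the list. It had 6.96 FPKM in AT, 11.9 in BL, 15.2 in SPL and 9.14 in BM LSC, against 8.86 in NBM. BL LSC stood above AT LSC, BM LSC and NBM for this gene and below SPL LSC only, and AT LSC was lowest. None of these differences was called, with folds of 0.38 ± 0.44 (q = 0.629) in BL against BM LSC and -0.77 ± 0.56 (q = 0.371) in AT against BL LSC in the authors' deposited tables. It was the one member with a fold above 0 in BL against BM LSC.

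Of the genes of chromosome condensation and surface, 6 of 7 were called lower in BL against BM LSC, 4 of 7 lower in AT against BM LSC and 2 of 7 higher in AT against BL LSC in the authors' deposited tables. The shares of all tested genes were 22.8%, 15.5% and 4.01%. With centred folds the counts were 6, 0 and 2, against 13.5%, 5.11% and 4.39% of all tested genes. Top2a, the topoisomerase that untangles sister chromatids, had 11.4 FPKM in AT, 4.21 in BL, 38.5 in SPL and 32.7 in BM LSC, against 38.1 in NBM. In the authors' deposited tables its fold was -2.96 ± 0.36 (q = 5.49e-14) in BL against BM LSC, -1.52 ± 0.47 (q = 0.00882) in AT against BM LSC and 1.44 ± 0.50 (q = 0.0227) in AT against BL LSC. Mki67 (chr7:135689788-135716379, mm10), the chromosome surface protein Ki-67 used to mark dividing cells, had 6.51 FPKM in AT, 2.9 in BL, 17.1 in SPL and 13 in BM LSC, against 16.2 in NBM. It was called in BL against BM LSC (-2.16 ± 0.37, q = 1.84e-07, the authors' deposited table), but neither in AT against BM LSC (-1.0 ± 0.47, q = 0.121) nor in AT against BL LSC (1.17 ± 0.49, q = 0.0732). The condensin subunits Ncapd2, Ncapg and Ncaph had folds between -1.43 and -1.30 in AT against BM LSC, all called lower in the authors' deposited table. For the core ATPases of condensin the folds lay nearer 0: Smc2 had -0.85 ± 0.42 (q = 0.146) and Smc4 -0.48 ± 0.43 (q = 0.51) there, neither called. The difference between these ATPases and the other subunits was not tested. Smc4 had 5.87 FPKM in AT, 4.4 in BL, 9.46 in SPL and 8.17 in BM LSC, against 8.92 in NBM. It was not called in BL against BM LSC either (-0.89 ± 0.35, q = 0.0521, the authors' deposited table).

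**Figure D3:**
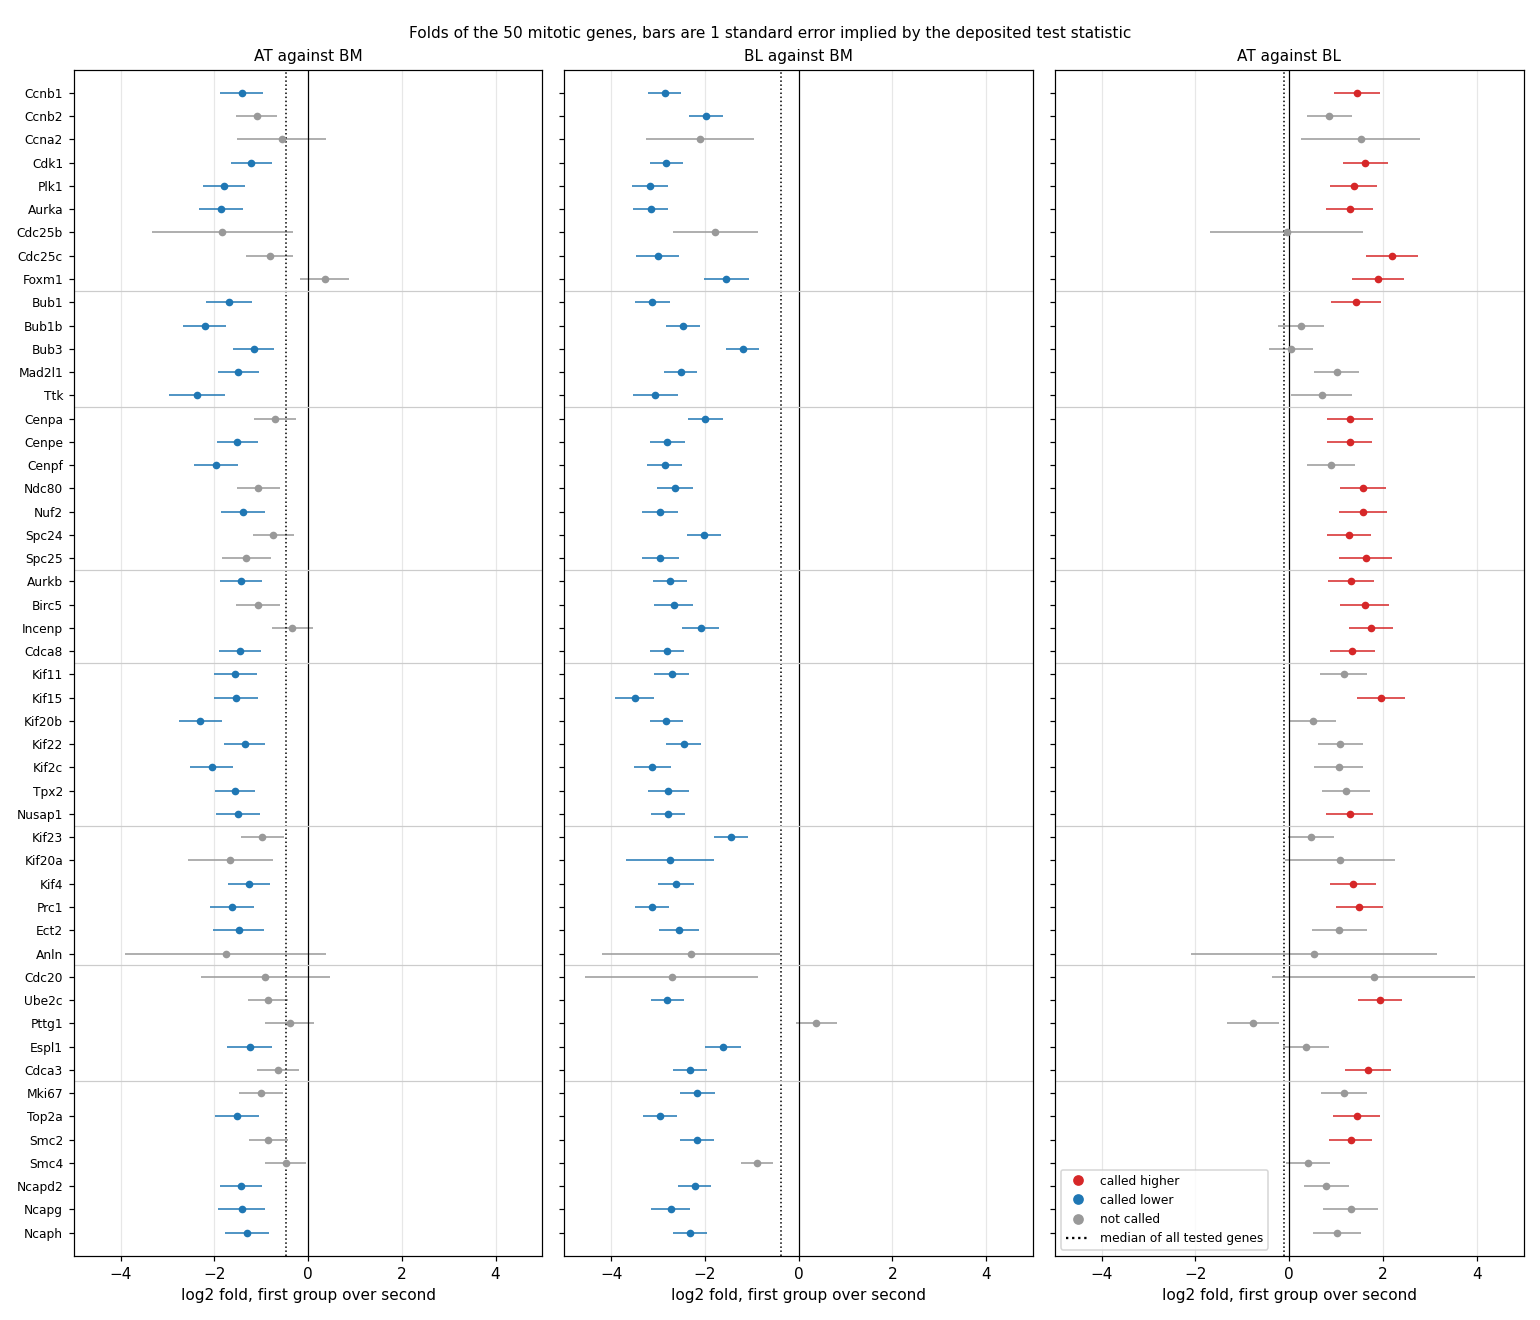
Authors' log2 folds (points) with 1 standard error (bars) for the 50 genes in AT against BM, BL against BM and AT against BL LSC, coloured by call, with grey lines between roles and the median of all tested genes dotted. Blue points fill the middle panel (44 of 50 called lower), 29 are blue on the left, and 25 are red on the right with the checkpoint genes mostly grey.

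None of the tested members was called between marrow LSC and normal cells. In BM LSC against NBM the Cuffdiff test in the authors' deposited table called 0 of 49 members (16.0% of all tested genes in either direction). Of the members, 4 had an unadjusted p below 0.05 (22.3% of all tested genes): Foxm1, Birc5, Kif23 and Cdca3. The median fold was -0.20, against -0.03 over all tested genes, and 40 of 50 levels were lower in BM LSC, against 50.6% of the tested genes. Foxm1 had the lowest fold, -1.01 ± 0.42 (q = 0.0719), then Cdca3 with -0.74 ± 0.32 (q = 0.086) and, in the authors' deposited table, Birc5 with -0.65 ± 0.32 (q = 0.135). The highest folds were small, 0.32 ± 1.06 (q = 0.901) for Anln and 0.13 ± 0.32 (q = 0.852) for Cenpf in the authors' deposited table. The 95% interval stayed within 1 log2 unit of 0 for 31 of 49 members, so a 2-fold difference lies outside it for those genes and inside it for the rest. Standard errors of the members there ran from 0.28 to 1.06.

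None was called between spleen LSC and marrow LSC or normal cells either. The Cuffdiff test in the authors' deposited table called 0 of 50 members in SPL against BM LSC (2.69% of all tested genes in either direction) and 0 had an unadjusted p below 0.05 (6.34% of all tested genes). The median fold was 0.43 against 0.12 over all tested genes. SPL LSC stood above BM LSC for 46 of 50 genes, against 60.0% of the tested genes. In SPL LSC against NBM the authors' deposited table called 0 of 49 by Cuffdiff (12.6% of all tested genes), 0 had an unadjusted p below 0.05 (18.8% of all tested genes), and the median was 0.15. The pooled SPL column was the shallowest, and the intervals stayed within 1 log2 unit of 0 for 9 of 50 members against BM LSC and 20 of 49 against NBM.

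Other genes of the same processes were read from 6 lists. Of 31 further kinetochore and centromere genes, 24 were called lower in BL against BM LSC, 11 lower in AT against BM LSC and 6 higher in AT against BL LSC, with none called the other way, in the authors' deposited tables, where 22.8%, 15.5% and 4.01% of all tested genes were called in those directions. With centred folds these counts were 22, 2 and 7, against 13.5%, 5.11% and 4.39% of all tested genes. The centred 2 in AT against BM LSC are near that share. Sgol1, or shugoshin, the protector of centromeric cohesion, had 0.887 FPKM in AT LSC, against 4.25 in BM LSC (-2.26 ± 0.47, q = 4.21e-05, the authors' deposited table). Spdl1, which brings dynein to kinetochores, had 1.46 FPKM in AT LSC, against 0.217 in BL LSC (2.75 ± 0.58, q = 4.52e-05, the authors' deposited table). Of 27 further spindle, centrosome and cytokinesis genes, 24 were called lower in BL against BM LSC, 14 lower in AT against BM LSC and 7 higher in AT against BL LSC, and with centred folds 21, 4 and 7. The shares of all tested genes were 22.8%, 15.5% and 4.01%, and with centred folds 13.5%, 5.11% and 4.39%. Aspm, which focuses spindle poles, had -2.36 ± 0.51 (q = 8.02e-05) in AT against BM LSC, and Hmmr, a spindle assembly factor, had -2.94 ± 0.36 (q = 5.49e-14) in BL against BM LSC, in the authors' deposited tables. Plk4, the kinase that starts centriole duplication, rose in AT against BL LSC (1.87 ± 0.55, q = 0.00524, the authors' deposited table). In BM LSC against NBM the authors' deposited table called 1 of 27 lower, a share under the 7.85% of all tested genes called lower: Racgap1, the centralspindlin partner of Kif23 (-1.16 ± 0.45, q = 0.0476), which lost its call with centred folds.

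DNA replication genes act before mitosis. Of those tested, 26 of 29 were called lower in BL against BM LSC (median -2.09), 9 of 29 lower in AT against BM LSC (median -1.09) and 6 of 30 higher in AT against BL LSC (median 1.12) in the authors' deposited tables. Of all tested genes, 22.8%, 15.5% and 4.01% were called in those directions. With centred folds the counts of the list were 22, 2 and 8, against 13.5%, 5.11% and 4.39% of all tested genes. The centred 2 in AT against BM LSC are near that share. The differences from the counts of the 50 mitotic genes were not tested. Mcm10, a replication initiation factor, had -3.13 ± 0.38 (q = 5.49e-14) in BL against BM LSC, and Cdc6, which loads the replicative helicase, had 2.13 ± 0.51 (q = 0.000464) in AT against BL LSC, in the authors' deposited tables. Rfc2, a subunit of the clamp loader, had -1.76 ± 0.45 (q = 0.00109) in AT against BM LSC in the authors' deposited table. In BM LSC against NBM the authors' deposited table called 2 of 29 lower, Cdt1 (-1.17 ± 0.42, q = 0.0291) and Gins1 (-1.25 ± 0.47, q = 0.0386), a share near that of all tested genes.

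Genes of mitotic entry and G2 control outside the list were called lower for 9 of 17 in BL against BM LSC and 6 of 17 in AT against BM LSC, and higher for 5 of 17 in AT against BL LSC, in the authors' deposited tables, and with centred folds for 8, 4 and 6. The shares of all tested genes were 22.8%, 15.5% and 4.01%, and with centred folds 13.5%, 5.11% and 4.39%. Mybl2, which encodes B-MYB, had 0.548 FPKM in AT LSC, against 0.119 in BL LSC (2.20 ± 0.56, q = 0.00116, the authors' deposited table). Cdc25a, the phosphatase that starts S phase and mitosis, had 2.29 ± 0.51 (q = 0.000142) there. Wee1, the kinase that inhibits Cdk1, was the one gene of the list called in the other direction: it had 0.336 FPKM in AT LSC, against 1.47 in BL LSC (-2.13 ± 0.60, q = 0.00365, the authors' deposited table). In BL against BM LSC the authors' deposited table called it higher (1.52 ± 0.43, q = 0.00389), where 10.5% of all tested genes were called higher. Mastl, the Greatwall kinase that keeps mitotic phosphates in place, had -2.23 ± 0.54 (q = 0.000506) in AT against BM LSC in the authors' deposited table.

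The anaphase-promoting complex and cohesin, which also act outside mitosis, had smaller folds. The authors' deposited table called 8 of 18 genes of the complex and its regulators lower and 1 higher in BL against BM LSC, with a median fold of -0.80. Of all tested genes, 22.8% were called lower and 10.5% higher there. In AT against BM LSC it called 3 of 18 lower, with a median of -0.77. The AT count is near the 15.5% of all tested genes called lower there. With centred folds, 1 of 18 was called lower in BL against BM LSC, a share under the 13.5% of all tested genes, and 1 higher. The 3 calls in AT against BM LSC were lost with centred folds (5.11% of all tested genes lower). The strongest call in BL was Fbxo5, or Emi1, an inhibitor of the complex that is itself made late in the cell cycle (-2.56 ± 0.37, q = 6.41e-10, the authors' deposited table). Anapc2, a catalytic subunit, was the one called higher (1.21 ± 0.40, q = 0.0165, the authors' deposited table). Of 15 cohesin and other condensin genes, 8 were called lower in BL against BM LSC (median -0.91) and 4 lower in AT against BM LSC (median -0.84) in the authors' deposited tables, and with centred folds 6 and 1, beside 1 higher in BL against BM LSC. The shares of all tested genes called lower were 22.8% and 15.5%, and with centred folds 13.5% and 5.11%. The centred 1 of 15 is near that last share. Esco2, which acetylates cohesin in S phase, had the strongest call in AT against BM LSC (-2.26 ± 0.44, q = 1e-05, the authors' deposited table), whereas the cohesin ring gene Smc3 had -0.84 ± 0.43 (q = 0.163) there.

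**Figure D4:**
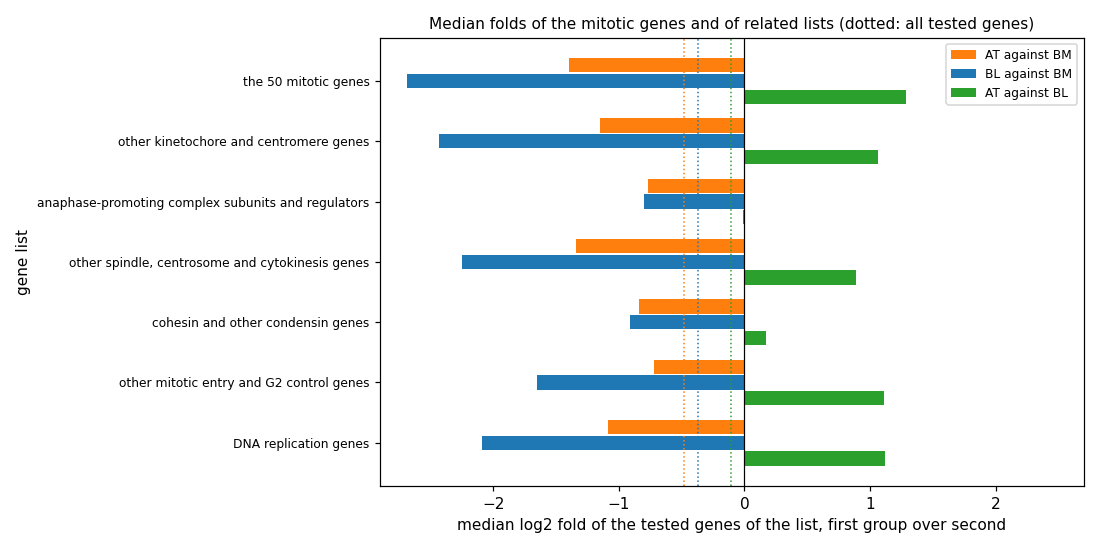
Median log2 fold of the 50 mitotic genes and of 6 other lists in AT against BM, BL against BM and AT against BL LSC, as bars from 0, with the medians of all tested genes dotted. BL against BM is lowest for the mitotic genes (-2.69), the other kinetochore genes (-2.43) and the other spindle genes (-2.25), and near -0.80 and -0.91 for the anaphase-promoting complex and cohesin lists.

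Markers of other cells also differed between the groups, and their part in these results was not tested. Over the 4 LSC sites the macrophage and endothelial sums ran in the reverse of the mitotic order, highest in BL, then AT, BM and SPL. The sums of the other marker lists had neither the mitotic order nor its reverse. Macrophage markers, 7 of 7 found, summed to 152 FPKM in AT, 295 in BL, 55.9 in SPL and 79.7 in BM LSC, against 101 in NBM, mainly through Emr1, Cd68 and Csf1r. Among LSC, C1qa and C1qc were instead highest in SPL, with 1.22 and 0.902 FPKM, and Mrc1 in BM, with 0.76. The authors' deposited tables called 3 of 7 macrophage markers higher in AT against BM LSC (7.24% of all tested genes higher) and 4 of 7 higher in BL against BM LSC (10.5% higher). Mature neutrophil markers, 6 of 7 found, summed to 2060 FPKM in AT, 747 in BL, 395 in SPL and 497 in BM LSC, against 973 in NBM, nearly all from S100a8 and S100a9. In AT against BL LSC the authors' deposited table called S100a8 and S100a9 higher, but Mmp8 and Mmp9 lower (2.51% of all tested genes lower): Mmp8 had 9.91 FPKM in AT LSC, against 36.5 in BL LSC. All 8 stem and progenitor markers were above 0.1 FPKM in each group, and Kit had 1.64 FPKM in AT, 2.26 in BL, 4.1 in SPL and 2.93 in BM LSC, against 10.4 in NBM. The 8 markers summed to 152 FPKM in AT, 304 in BL, 144 in SPL and 168 in BM LSC, against 291 in NBM, mainly through Ly6a, and of these Cd34 had 8.07 in AT, 7.92 in BL, 9.6 in SPL and 24.3 in BM LSC, against 40.0 in NBM. Stromal markers summed to 29.5 FPKM in AT, against 1.1 in BL, 2.34 in SPL, 2.86 in BM LSC and 2.69 in NBM, with 21.0 of the AT sum from Dcn. In AT against BM LSC the authors' deposited table called 6 of 7 tested higher and 0 lower. Pdgfrb was lowest in AT, 0.502 FPKM, against 0.748 in BL, 0.739 in SPL, 2.21 in BM LSC and 2.09 in NBM. Col1a2 had 0.425 in AT, below 1.06 in SPL and 0.458 in BM LSC. Endothelial markers summed to 14.1 FPKM in AT, 24.2 in BL, 8.19 in SPL and 11 in BM LSC, against 13.8 in NBM, nearly all Pecam1. The other 4, Cdh5, Kdr, Tek and Emcn, stood higher in AT than in BL LSC, and the authors' deposited table called Cdh5 (0.276 FPKM in AT LSC, against 0.00106 in BL LSC) and Tek (0.272 in AT LSC, against 0.0175 in BL LSC) higher there. Of the adipocyte markers, Adipoq, Lep and Plin1 were at most 0.0304 FPKM in AT LSC. Fabp4, which macrophages also express, had 46.2 FPKM in AT, 31.8 in BL, 3.78 in SPL and 3.45 in BM LSC, against 3.57 in NBM. B cell markers summed to between 1.46 FPKM in AT LSC and 21.1 in NBM, and T and NK cell markers to between 1.41 in AT LSC and 37.2 in NBM. Erythroid markers summed to 680 FPKM in AT, 2380 in BL, 845 in SPL and 788 in BM LSC, against 100 in NBM, nearly all globin.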

How the data were processed

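RNA-seq of 15 libraries, 3 in each of 5 groups, was used as the authors deposited it. Per the labels' protocols, total RNA (RNeasy Plus) was turned into low-input libraries by SMARTer chemistry and Nextera XT. Per the submitters' processing notes, Trimmomatic 0.32, Cufflinks 2.0.2 and Cuffdiff were used with mm10. The aligner, the annotation and the Cuffdiff release were not given in the sources used here. Pooled over its libraries by Cuffdiff, 1 FPKM per gene and group was deposited by the authors. They also deposited an estimated count per gene and group, and these summed to 19600000 in AT, 19500000 in BL, 8960000 in SPL and 16500000 in BM LSC, against 19500000 in NBM (3 significant digits). The lowest count of a member was 47, in BL. For each of 10 pairs of groups the authors deposited a p-value, a q-value, a log2 fold and Cuffdiff's test statistic, a score of the fold over its error, some folds being infinite placeholders where 1 group was at 0. No column held a single library, so the planned edgeR test over libraries could not be fitted, and the authors' own test was used as planned in that case.

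Folds were turned, where needed, so that the first group named is over the second. The standard error is the fold divided by the test statistic, and intervals are at 95%. The deposited q equalled a Benjamini-Hochberg adjustment over all 10 comparisons together within 1.7e-06. A gene was called at q below 0.05. Alternatives were folds centred on the median of all tested genes, total count and upper quartile scaling, adjustment within a comparison, an FPKM minimum of 1, merged entries left out (233), q below 0.01, pseudocounts of 0.1 and 1, and folds from counts. Promoter windows were read from RefSeq (GRCm38.p6) and searched on both strands. Python 3.11.15 with pandas 2.3.3 and numpy 2.4.6 was used. Values in every group were printed for 10 set members, and for the 6 smallest q and the 3 highest and 3 lowest folds in 4 comparisons. Of each other list, up to 3 genes with the smallest q in a comparison were named, and Smc3 and the value of Anapc2 in BL against BM LSC were added after their values were seen. The members and lists were chosen with earlier results of these data known.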

Additional observations from a re-analysis of the deposited data

How the results depend on the processing

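No count of called members changed direction under any alternative run, and 58 of 70 counts stayed within 1.5 times the reported one. The 12 that fell below it all concern adipose LSC. In AT against BM LSC the 29 genes called lower became 7 with folds centred on the median of all tested genes, 7 with upper quartile scaling, 14 with total count scaling and 16 at q below 0.01. In AT against SPL LSC the 32 became 16 centred, 14 with upper quartile scaling, 16 with total count scaling and 21 at q below 0.01. In AT LSC against NBM the 35 became 16 centred and 20 with upper quartile scaling. In AT against BL LSC the 25 called higher became 8 with adjustment within the comparison and 8 at q below 0.01. The cause of these shifts was not tested. The counts for BL LSC against BM LSC, SPL LSC and NBM stayed within 1.5 times under each alternative run. Median folds moved beyond the limit used in 4 cases: to -1.19 in AT against SPL LSC with folds from counts, and with a pseudocount of 1 to -1.81, -2.16 and -2.03 in BL LSC against BM LSC, SPL LSC and NBM. No paired analysis was possible because the deposited columns are pooled per group and carry no replicate number. For the same reason the planned fits without single libraries were not run, so it is not known whether 1 library sets a pooled value. Low counts limit BL LSC most, where 6 members had fewer than 100 estimated counts.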
